A study of Ciona robusta with 7 samples.

Results

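Heart muscle cells and mature pharyngeal muscle cells were compared with each other, as the contractile products of a single embryonic lineage of the tunicate *Ciona robusta*. Both were picked by their own transcripts from the same plates of sorted cells. A cell was called heart muscle where MYH1/2, a muscle myosin heavy chain, and the tropomyosin KH.C3.661 together reached 1000 CPM (the reads of a gene, scaled so that every cell has the same total) and the pharyngeal sum stayed under 1000 CPM. It was called mature pharyngeal muscle where CACNA1C (a calcium channel pore), NPBWR2 (a neuropeptide receptor), BVES (a Popeye domain membrane protein) and SLC8A1/2/3 (a sodium-calcium exchanger) together reached 1000 CPM and the heart sum stayed under 1000 CPM. Of 315 cells kept with 1000 or more genes, 40 were heart muscle, 26 were mature pharyngeal muscle and 249 passed neither gate. The 66 muscle cells are the subject here, and the 6 gating genes are left out of every result.

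All cells were sorted as Mesp+ cells from stage 38 juveniles and were sequenced by SMART-seq2, a full-length cDNA method without molecular identifiers, on 7 plates of 96 barcodes. No allele, treatment or time differed between plates, so the groups are kinds of cell found on the same plates. The labels do not name the driver of the sort, the number of animals or whether plates came from separate cultures. Plates therefore serve as replicates, and differences between them may be technical. P-values of the main fit rest on a spread pooled over genes, not on each gene's own spread between plates. Intervals on read counts cover counting error only.

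In *Ciona*, founder cells that express Mesp give rise to the heart, a tube of muscle cells, and to muscles of the pharynx around the siphons. In both, myosin thick filaments pull on actin thin filaments, and troponin and tropomyosin let calcium switch this contraction. In vertebrates, NKX2 homeobox, GATA and HAND factors are known for the heart muscle programme, and myogenic factors such as MYF5 for skeletal muscle. The EBF factor is known in *Ciona* for specifying pharyngeal muscle.

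Plates 2 to 8 held 1, 2, 8, 8, 0, 17 and 4 heart muscle cells and 4, 2, 9, 5, 2, 3 and 1 pharyngeal muscle cells. Plates 4, 5 and 7 had at least 3 cells on each side, and the fit used their 33 heart and 17 pharyngeal cells. Plates 2, 3 and 8 held 7 cells of each kind, and the other 2 pharyngeal cells sat on plate 6, which had no heart muscle cell. The median heart muscle cell gave 129602 reads and 1974 genes, and the median pharyngeal muscle cell 110930 reads and 2048.5 genes. The cells of neither gate had 161067 reads and 2442 genes. The sums of plates 4, 5 and 7 held 640927, 868683 and 4542763 reads of heart muscle and 1285014, 1498536 and 496862 reads of pharyngeal muscle. Of the 66 cells, 28 carried a barcode sequence that another of them had on a different plate, and 9 barcodes occurred on both sides. They were treated as different cells, since they came from different plates.

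The gate sums chose the cells and are described without a test. In heart muscle cells the heart sum had a median of 10748.4 CPM and the pharyngeal sum one of 11.9 CPM, with 399 CPM as its highest value and 12 cells at 0. In pharyngeal muscle cells the pharyngeal sum had a median of 2895 CPM and the heart sum one of 6.82 CPM, with 103 CPM as its highest value and 9 cells at 0. No cell passed both gates, and no doublet caller was run. Just inside the heart gate lay cells at 1086, 1191 and 1265 CPM, and just outside it cells at 948, 936 and 792 CPM. Just inside the pharyngeal gate lay cells at 1195, 1349 and 1398 CPM, and just outside it cells at 968, 946 and 889 CPM. Between 500 and 2000 CPM there were 18 cells on the heart sum and 26 on the pharyngeal sum, so the edges are soft on both sides.

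**Figure D1:**
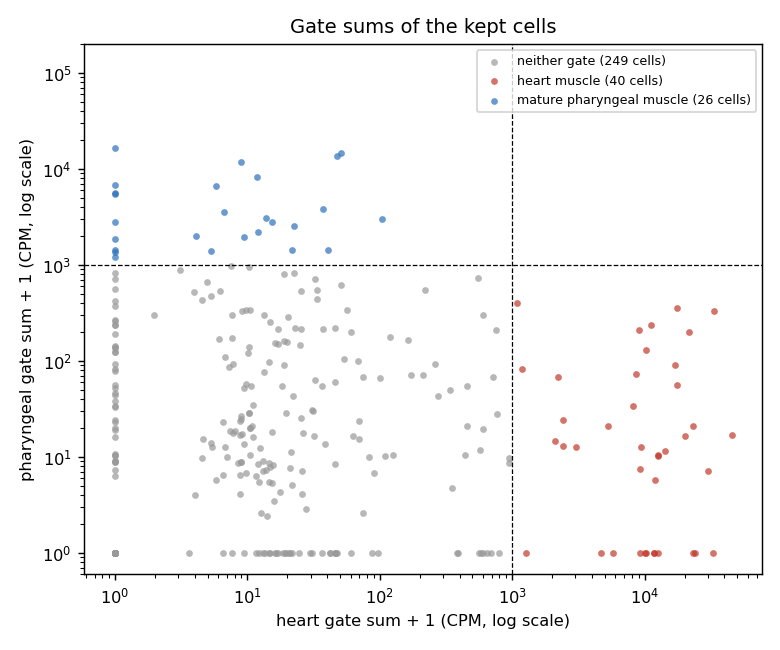
Gate sums of the 315 kept cells. The x axis is the heart gate sum and the y axis the pharyngeal gate sum, both as CPM + 1 on log scales, and each point is 1 cell. Dashed lines mark 1000 CPM, and the quadrant past both lines is empty.

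Both muscles were set against each other within plates to ask which transcripts separate them. Of 4233 genes tested, 88 were higher in heart muscle (2.08%) and 110 were lower (2.6%) at an adjusted p under 0.05 (4.68% in all), by edgeR's quasi-likelihood test with the plate as a block. All 88 higher genes and 108 of the 110 lower ones differed in the same direction in each of the 3 plates. All 198 calls were among the 2394 genes with a mean of 50 CPM or more on a side, 8.27% of those. Shares of lists below are set against the 4.68% of all genes, which is the lower of these backgrounds. The spread was pooled completely over genes in this fit, so the standard errors below are not a spread over plates and p-values far below the threshold should be read with caution. The median log2 fold change (heart minus pharyngeal) over all genes tested was 0.79, and it was 1.20 when sums were scaled by total reads only. That scaling gave 134 higher and 89 lower genes, so 44.4% of the calls were higher in heart under the main scaling and 60.1% under total reads. The smallest change called higher was 2.87 and the smallest called lower -1.52, so every called gene stood on the same side of 0 as of the median gene.

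**Figure D2:**
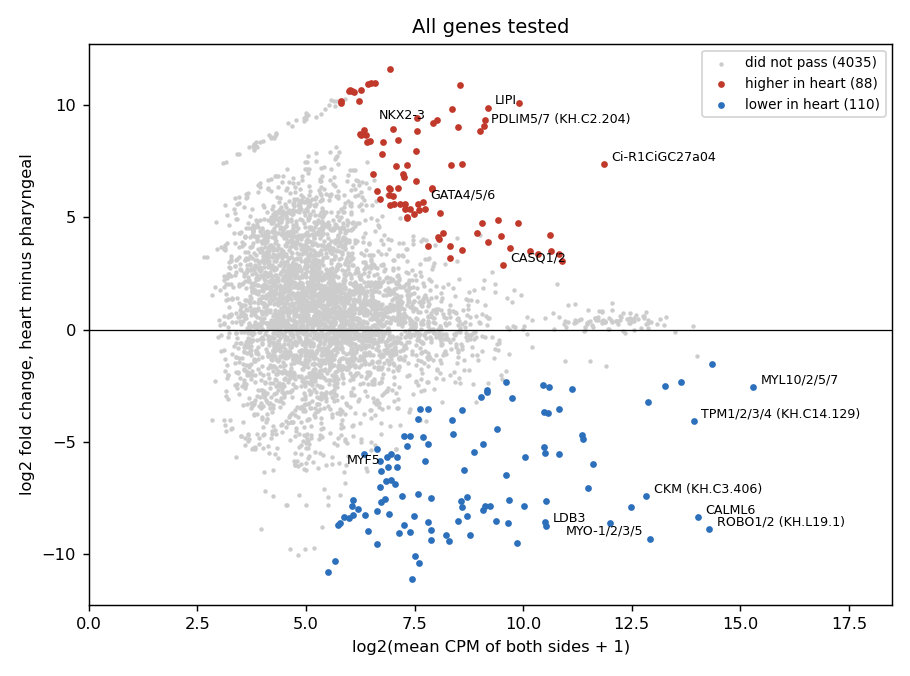
All 4233 genes tested. The x axis is the log2 of the mean CPM of both sides + 1, the y axis the log2 fold change of heart minus pharyngeal muscle over plates 4, 5 and 7, and each point is 1 gene. The 88 higher and 110 lower genes are coloured, and the rising line of points at the upper left holds genes with 0 reads in pharyngeal muscle, whose fitted values are no measured folds.

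Values per plate below are CPM in the summed cells of plates 4, 5 and 7, in that order, and every test rests on these 3 plates. Gene names are those of the deposited table, where a name often stands for a family, and the counting may have divided reads between paralogues with nearly the same sequence. Where a side held 3 reads or fewer over the 3 plates, a ratio of pooled reads is given in place of a fitted fold. Adjusted p-values are those of the same edgeR fit, adjusted over all genes tested by Benjamini and Hochberg's method, and for calls lost in fits on 2 plates those values are given.

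Of the factors known for the heart, NKX2-3 separated the sides in each of the 3 plates and passed in each fit on 2 of them, while GATA4/5/6 passed only with all 3. NKX2-3 (KH.C8.482), a homeobox factor, stood at 369.8, 589 and 497 CPM in heart muscle against 0.778, 0.667 and 0 CPM in pharyngeal muscle. The groups were far apart in every plate, and 3009 reads against 2 gave a ratio of 815 (95% counting interval 226 to 6736, adjusted p = 3.5e-07). GATA4/5/6 (KH.L20.1), a zinc finger factor of heart and endoderm, stood at 485, 283 and 362 CPM against 95.7, 0.667 and 2.01 CPM, a log2 fold change of 5.68 ± 1.54. The groups did not overlap, and 1 pharyngeal cell of plate 4 with 1326 CPM stood far above the next pharyngeal cell at 20.5 CPM. That cell was low in several pharyngeal muscle genes and is described with the single cells below. In fits on 2 plates its adjusted p was 0.0521 without plate 4, 0.377 without plate 5 and 0.0519 without plate 7. HAND/1/2, a basic helix-loop-helix factor of the heart, had 388 reads in heart muscle (25, 138 and 55.5 CPM) and 0 in pharyngeal muscle, at least 70.1-fold higher against a floor of 3 reads over the 3 plates. It did not pass (adjusted p = 0.188), nor did TBX2/3 and MEF2D, whose plate values overlapped. Of 8 heart regulators in the table, 5 were tested, 2 were higher and 3 did not pass (40% called against 4.68% of all genes). Their median log2 fold change was 5.68 against 0.79 for all genes.

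Reads of NKX2-3 were seen in 29 of 40 heart muscle cells and 2 of 26 pharyngeal muscle cells. After each cell was thinned to 20000 reads, 26 of 38 heart cells, 0 of 26 pharyngeal cells and 33 of 240 cells of neither gate kept a read of it. A count of 0 in 26 cells allows a share of up to 11.5% of cells with a read at that depth, for counting error only and with cells of a plate not independent. GATA4/5/6 kept a read in 32 of 38 heart cells, 2 of 26 pharyngeal cells and 44 of 240 cells of neither gate. At equal depth most heart muscle cells thus kept a read of each factor, and few pharyngeal cells did.

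Regulators of pharyngeal muscle were less uniform over plates. MYF5 (KH.C14.307), a myogenic basic helix-loop-helix factor, stood at 3.12, 1.15 and 9.47 CPM in heart muscle against 293, 302 and 98.6 CPM in pharyngeal muscle, a log2 fold change of -6.14 ± 1.67. Plate 7 had the lowest pharyngeal value, still above every heart value. Its adjusted p was 0.29 without plate 4, 0.765 without plate 5 and 0.000183 without plate 7. EBF1/2/3/4 (KH.L24.10), a COE family factor, stood at 21.8, 9.21 and 10.1 CPM against 468, 663 and 8.05 CPM. The 3 pharyngeal cells of plate 7 lay at the heart level, so the groups overlapped and it did not pass (log2 fold change -4.05 ± 1.46, adjusted p = 0.103). Without plate 7 the log2 fold change was -5.62 and the adjusted p = 0.00032. ISL1/2, a LIM homeobox factor, stood at 56.2, 251 and 115 CPM against 105, 90.1 and 103 CPM with a log2 fold change of -0.11 ± 1.34, and its 95% interval ran from -2.74 to 2.53. PITX1/2/3, a further homeobox factor of this list, had 232 reads in heart and 3 in pharyngeal muscle and did not pass (adjusted p = 0.71). Of 10 pharyngeal muscle regulators in the table, 4 were tested, 1 was lower in heart and 3 did not pass (25% called against 4.68% of all genes). Their median log2 fold change was -2.08.

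**Figure D3:**
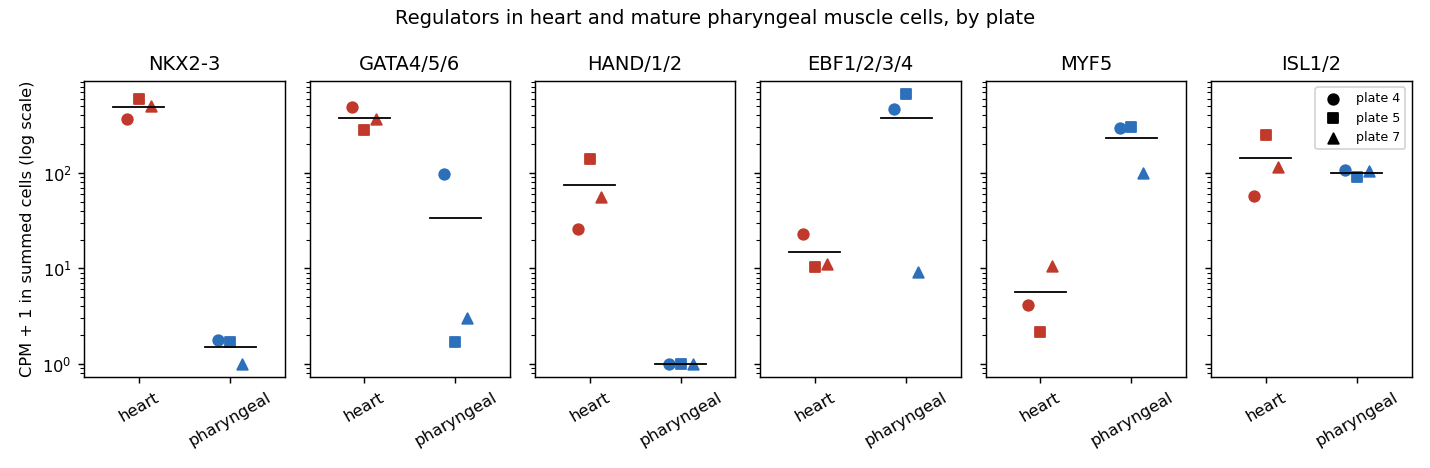
Regulator transcripts by plate. The y axis is CPM + 1 of the summed cells on a log scale, each point is a plate (circle plate 4, square plate 5, triangle plate 7), and lines are means of 3 plates. NKX2-3 is separated in every plate, while the plate 7 point of EBF1/2/3/4 in pharyngeal muscle lies at 8.05 CPM.

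Other transcription factors were named after their values were seen. SOX11/12/4, an HMG box factor, stood at 434, 442 and 219 CPM in heart against 63, 2 and 2.01 CPM in pharyngeal muscle (log2 fold change 5.33 ± 1.48). For SOX11/12/4 the adjusted p was 0.0894 without plate 4, 0.547 without plate 5 and 0.0258 without plate 7. HOXC10/11, a Hox factor, stood at 4.68, 2.3 and 1.76 CPM in heart against 177, 598 and 352 CPM in pharyngeal muscle, a log2 fold change of -7.33 ± 1.41. It lost its call without plate 5 (adjusted p = 0.0792). The Iroquois homeobox gene IRX4/6 had 2 reads in heart muscle and 376 in pharyngeal muscle, where it stood at 99.6, 128 and 113 CPM. The ratio of pharyngeal to heart reads was 347 (95% counting interval 95.4 to 2875). The adjusted p of IRX4/6 was 0.0796 without plate 4, 0.924 without plate 5 and 0.12 without plate 7. The groups of all 3 genes were separate in plates 4, 5 and 7. On plates 2, 3 and 8, which the fit did not use, SOX11/12/4 ran the other way in each plate, with 378 CPM in the pooled heart cells and 560.2 CPM in the pooled pharyngeal cells. IRX4/6 had 50 heart reads (42.6 CPM) and 87 pharyngeal reads (79.2 CPM) there, so it was not near 0 in heart muscle on those plates, and heart was higher in plates 2 and 8.

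The contractile genes differed in their share of reads and, gene by gene, in direction. Transcripts of the 48 sarcomere genes other than the gating genes took 6.18% ± 0.863 of the reads in heart muscle and 21.0% ± 1.53 in pharyngeal muscle (SD, n = 3 plates), and 1.90% ± 0.719 in the cells of neither gate. The plate values were 6.89, 6.45 and 5.22% against 19.3, 22.1 and 21.6%, with no overlap. Of these genes, 32 were tested, 2 were higher in heart muscle, 10 were lower and 20 did not pass (37.5% called against 4.68% of all genes). Their median log2 fold change was -1.16, which is 1.95 below that of all genes, and it was -0.84 with total reads. The sums leave out MYH1/2 and the tropomyosin KH.C3.661, which chose the heart muscle cells. The list was found by gene names, so its sums and counts also leave out MYO-1/2/3/5, ACTN/1/2/3/4, PALLD and MYLK (KH.C9.384), which are given below.

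Thick filament genes differed in both directions. MYO-1/2/3/5 (KH.C3.774), named after nematode muscle myosin heavy chains, stood at 60.8, 36.8 and 13 CPM in heart muscle against 11512, 17101 and 17774 CPM in pharyngeal muscle. Every pharyngeal value was far above every heart value, with a log2 fold change of -9.32 ± 0.64. The regulatory light chain MYL10/2/5/7 (KH.C8.239) stood at 17116, 17647 and 9234 CPM against 54144, 67211 and 76786 CPM, a log2 fold change of -2.57 ± 0.37. It was abundant on both sides and did not overlap between them, but without plate 7 the adjusted p was 0.584. The essential light chain MYL1/3/4/6 stood at 12278, 11894 and 10388 CPM against 23797, 26160.0 and 13921 CPM and did not pass (log2 fold change -1.19 ± 0.41, adjusted p = 0.0672). Scaled by total reads it passed as lower in heart. In the other direction, MYBPC1/2/3 (KH.C1.113), a myosin-binding protein, stood at 111, 257 and 266 CPM in heart against 0, 0.667 and 2.01 CPM in pharyngeal muscle. Its reads, 1504 against 2, gave a ratio of 408 (95% counting interval 113 to 3369, adjusted p = 0.0046). In fits on 2 plates its adjusted p was 0.134 without plate 4, 0.261 without plate 5 and 0.0144 without plate 7.

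Thin filament genes were lower in heart muscle in every family with a call. The tropomyosin TPM1/2/3/4 (KH.C14.129) stood at 2033, 2489 and 2036 CPM in heart against 27869, 30747 and 28060.0 CPM in pharyngeal muscle, a log2 fold change of -4.08 ± 0.45. Its values varied little within a side, and it passed in each fit on 2 plates. Heart muscle had been picked by another tropomyosin, KH.C3.661, which is not tested here. The inhibitory troponin subunit TNNI1/2/3 stood at 14477, 12491 and 11465 CPM against 25690.0, 26980.0 and 33504 CPM (log2 fold change -1.52 ± 0.39). The tropomyosin-binding subunit TNNT1/2/3 stood at 6626, 4026 and 5104 CPM against 17239, 21743 and 22060.0 CPM (log2 fold change -2.33 ± 0.44). The calcium-binding subunit TNNC1 (KH.C8.251) stood at 1584, 2828 and 1273 CPM against 11883, 13457 and 14008 CPM (log2 fold change -3.23 ± 0.49). All 3 subunits were lower in heart in each plate. Without plate 7 none of the 3 passed, with adjusted p = 0.874, 0.368 and 0.0675 in that order, and TNNI1/2/3 also lost its call without plate 5 (adjusted p = 0.163) and under the DESeq2 test and its size factors.

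The muscle actin ACTA1/2 (KH.C8.649) stood at 4395, 3716 and 2543 CPM in heart against 17844, 19462 and 10764 CPM in pharyngeal muscle, a log2 fold change of -2.52 ± 0.45. Its paralogue ACTA1/2 (KH.C1.570) stood at 543, 588 and 418 CPM against 2410.1, 3089 and 1437 CPM, a log2 fold change of -2.46 ± 0.64. Actin copies are close in sequence, so how reads divided between them is uncertain. Without plate 7 the adjusted p-values were 0.204 and 0.0795, and for KH.C1.570 it was 0.261 without plate 5. LMOD1/3, a leiomodin that nucleates actin filaments, stood at 108, 297 and 316 CPM against 1115, 1107 and 2178 CPM (log2 fold change -3.04 ± 0.75, adjusted p = 0.0519 without plate 7). The nebulin NEB (KH.C1.479) stood at 1651, 871 and 1398 CPM against 2221, 2335 and 3442 CPM and did not pass (adjusted p = 0.243).

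Z-disc genes, whose products anchor the thin filaments, split between the sides. LDB3 (KH.C7.572), a PDZ-LIM protein of the Z-disc, stood at 12.5, 10.4 and 4.84 CPM in heart against 2339, 2692 and 3721 CPM in pharyngeal muscle, a log2 fold change of -8.75 ± 0.85. PDLIM5/7 (KH.C2.204), of the same PDZ-LIM family, went the other way at 1226, 1318 and 714 CPM in heart against 2.33, 0 and 4.03 CPM, a log2 fold change of 9.06 ± 1.24. Both were separate in every plate and passed in each fit on 2 plates. PDLIM1/2/3/4/7, a further member, stood at 616, 526 and 475 CPM against 1839, 2349 and 3459.7 CPM (log2 fold change -2.56 ± 0.64). It lost its call without plate 5 (adjusted p = 0.0766) and without plate 7 (adjusted p = 0.215). The other PDLIM5/7 gene (KH.L173.2) did not pass, with 78, 87.5 and 129.7 CPM against 70.8, 68.1 and 68.4 CPM. The giant elastic protein genes TTN (KH.C9.208) and TTN (KH.C9.36) did not pass either, with log2 fold changes of 0.43 ± 0.67 and 0.04 ± 0.73. Their 95% intervals ran from -0.89 to 1.74 and from -1.39 to 1.46. SMYD1, a methyltransferase of myosin assembly, MYOM1/2/3 of the M-band and the myosin chaperone UNC45A did not pass, with log2 fold changes of 1.68 ± 0.81, 1.54 ± 1.14 and 0.81 ± 0.94.

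**Figure D4:**
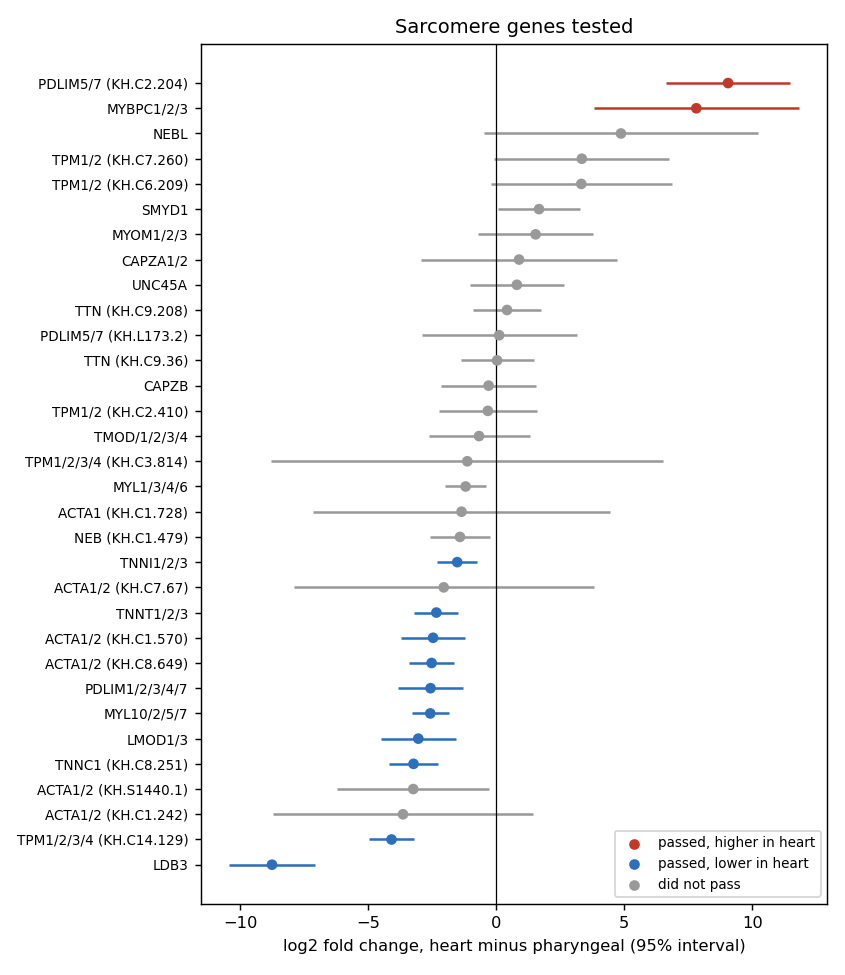
The 32 sarcomere genes tested. The x axis is the log2 fold change of heart minus pharyngeal muscle with its 95% interval from the fit, and each line is 1 gene. PDLIM5/7 (KH.C2.204) and MYBPC1/2/3 stand to the right and LDB3 farthest to the left, and the value of MYBPC1/2/3 rests on 2 pharyngeal reads.

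Further actin and sarcomere partners were named after their values were seen, so their directions are no tally. PALLD, a palladin that scaffolds actin, stood at 340.1, 198 and 208 CPM in heart against 3618, 4958 and 6475 CPM in pharyngeal muscle, a log2 fold change of -4.71 ± 0.63. The calpain protease gene CAPN1/11/2/3/8/9 stood at 212, 95.5 and 46.7 CPM against 3377, 3209 and 3997 CPM (log2 fold change -5.53 ± 0.71). MYLK (KH.C9.384), a myosin light chain kinase, stood at 3.12, 3.45 and 8.37 CPM against 549, 581 and 1125 CPM (log2 fold change -7.62 ± 1.15). These 3 were separate in every plate and in each fit on 2 plates. ACTN/1/2/3/4, the actin cross-linker alpha-actinin, had a log2 fold change of -3.60 ± 0.97, and FLNA, a filamin, one of -2.76 ± 0.87. Without each plate in turn, the adjusted p of ACTN/1/2/3/4 was 0.0645 (plate 4), 0.0132 (plate 5) and 0.184 (plate 7). For FLNA the adjusted p was 0.353 without plate 4 and 0.848 without plate 5. On the heart side, MLP60A, named after a fly muscle LIM protein, stood at 3417, 3822 and 3231 CPM against 261, 350.3 and 378 CPM (log2 fold change 3.06 ± 0.64). MYO18A, an unconventional myosin, stood at 733, 547 and 607 CPM against 0.778, 0.667 and 38.2 CPM (log2 fold change 7.35 ± 1.42). Both passed in each fit on 2 plates. TRIM54/55/63, a ubiquitin ligase family of the sarcomere, stood at 325, 346 and 249 CPM against 25.7, 5.34 and 2.01 CPM (log2 fold change 5.04 ± 1.49). Its adjusted p was 0.22 without plate 4, 0.456 without plate 5 and 0.0455 without plate 7.

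Calcium handling genes split by role. Of 36 in the table, 16 were tested, 2 were higher in heart muscle, 2 were lower and 12 did not pass (25% called against 4.68% of all genes). Their median log2 fold change was 0.10, 0.51 with total reads and -0.01 with DESeq2's size factors, so it has no firm sign. CASQ1/2 (KH.C4.635), the calsequestrin that stores calcium in the sarcoplasmic reticulum, stood at 1326, 1517 and 1176 CPM in heart against 187, 89.4 and 171 CPM in pharyngeal muscle, a log2 fold change of 2.87 ± 0.82. The groups were separate in every plate. For CASQ1/2 the adjusted p was 0.113 without plate 4, 0.26 without plate 5 and 0.0396 without plate 7.

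CALML6 (KH.C12.521), a calmodulin-like protein, stood at 201, 195 and 50.4 CPM in heart against 32055, 41384 and 25570.0 CPM in pharyngeal muscle, a log2 fold change of -8.37 ± 0.54. It passed in each fit on 2 plates and made up most of the list's share of reads in pharyngeal muscle, a share of 0.343% ± 0.0589 in heart and 3.53% ± 0.860 in pharyngeal muscle (SD, n = 3 plates). The plasma membrane calcium pump ATP2B1/2/3/4 stood at 126, 6.91 and 28 CPM against 267, 949.6 and 636 CPM (log2 fold change -4.64 ± 1.21). The adjusted p of ATP2B1/2/3/4 was 0.000149 without plate 4, 0.848 without plate 5 and 0.0672 without plate 7. The core of calcium release and uptake gave no call. The ryanodine receptor RYR1/2/3, the release channel of the sarcoplasmic reticulum, stood at 963, 412 and 495 CPM against 270.0, 561 and 318 CPM, with a log2 fold change of 0.32 ± 0.88 and a 95% interval from -1.40 to 2.03. The reuptake pump ATP2A1/2 (KH.L116.40) stood at 424, 434 and 627 CPM against 526, 633 and 199 CPM, with a log2 fold change of -0.11 ± 0.87 and a 95% interval from -1.82 to 1.61. Values of both overlapped between sides.

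Partners of the calcium channel pore used in the pharyngeal gate were also read. STAC/2/3, an adaptor of that channel in vertebrate muscle, had 0 reads in heart and 256 in pharyngeal muscle (104, 67.4 and 42.3 CPM), at least 157-fold higher there, but did not pass (adjusted p = 0.0581). It passed under DESeq2 and under its size factors. The auxiliary subunits CACNB1/2 and CACNA2D1/2 did not pass, with log2 fold changes of -2.27 ± 1.503 and -1.30 ± 1.74. CACNA2D1/2 stood at 229, 308 and 8.05 CPM in pharyngeal muscle, lowest in the 3 cells of plate 7. JPH1/2/3, a junctophilin that ties the reticulum to the surface membrane, stood at 292, 82.9 and 98.6 CPM in heart against 90.3, 30.7 and 0 CPM and did not pass (adjusted p = 0.817).

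The ion channel genes with a call were lower in heart muscle. Of 72 ion channel genes, 23 were tested, 0 were higher in heart muscle, 3 were lower and 20 did not pass (13% called against 4.68% of all genes), with a median log2 fold change of -2.91. At an unadjusted p under 0.05, edgeR had 2 higher and 9 lower, and DESeq2 called 2 higher and 10 lower. SCN8A (KH.C9.462), a voltage-gated sodium channel, had 2 reads in heart and 490 in pharyngeal muscle, where it stood at 114, 200.2 and 86.5 CPM (ratio 452, 95% counting interval 125 to 3743). In fits on 2 plates its adjusted p was 0.0725 without plate 4, 0.927 without plate 5 and 0.0118 without plate 7. KCNJ5/6/9, an inward-rectifier potassium channel, had 2 reads in heart and 397 in pharyngeal muscle, where it stood at 195, 58.1 and 119 CPM (ratio 366, 95% counting interval 101 to 3035). Its adjusted p was 0.3 without plate 4, 0.315 without plate 5 and 0.098 without plate 7. CHRNB1 (KH.C7.388), a subunit of the acetylcholine receptor of the neuromuscular junction, stood at 23.4, 13.8 and 52 CPM in heart against 214, 284 and 559.5 CPM (log2 fold change -4.001 ± 1.18). For CHRNB1 (KH.C7.388) the adjusted p was 0.0933 without plate 4, 0.435 without plate 5 and 0.0759 without plate 7. Only SCN8A of the 3 kept its call with total reads.

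Of 126 genes on the signal receptor list, 31 were tested, 0 were higher in heart muscle, 3 were lower and 28 did not pass (9.68% called against 4.68% of all genes). At an unadjusted p under 0.05, edgeR had 0 higher and 3 lower, and DESeq2 called 1 higher and 4 lower. The list was found by gene names and does not hold the receptor gene S1PR1/2/3/4/5 (KH.C2.935). That gene was called higher in heart muscle (edgeR adjusted p = 0.0476), though in no fit on 2 plates. The direction of the calls therefore holds for the list only. POPDC2/3 (KH.C6.32), a Popeye domain protein of the family of the gating gene BVES, stood at 1.56, 2.3 and 1.76 CPM in heart against 913, 918 and 793 CPM, a log2 fold change of -9.17 ± 1.19. Its values were close within each side, and it passed in each fit on 2 plates. ADORA2B, an adenosine receptor, stood at 0, 49.5 and 1.1 CPM against 94.9, 478 and 64.4 CPM (log2 fold change -5.71 ± 1.57). The adjusted p of ADORA2B was 0.135 without plate 4, 1 without plate 5 and 0.00902 without plate 7. GPR84 (KH.C7.37), a fatty acid receptor in mammals, had 3 reads in heart and 376 in pharyngeal muscle (ratio 231, 95% counting interval 78.5 to 1126). In fits on 2 plates its adjusted p was 0.22 without plate 4, 0.966 without plate 5 and 0.0188 without plate 7. With total reads POPDC2/3 alone of the 3 passed.

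Adhesion and guidance genes differed in both directions. ROBO1/2 (KH.L19.1), which the table names as a Slit guidance receptor, stood at 142, 92.1 and 86.7 CPM in heart against 36239, 49877 and 33323 CPM in pharyngeal muscle, a log2 fold change of -8.91 ± 0.54. With it the list of 91 genes took 0.276% ± 0.00680 of the reads in heart and 4.37% ± 0.891 in pharyngeal muscle (SD, n = 3 plates). SLIT1/2/3, named as a ligand of that receptor family and chosen after its values were seen, went the other way at 136, 245 and 319 CPM in heart against 10.1, 0 and 4.03 CPM (log2 fold change 5.99 ± 1.83). Its adjusted p was 0.0921 without plate 4, 0.765 without plate 5 and 0.122 without plate 7. DSCAM/2/3/4 (KH.C2.287), an immunoglobulin family adhesion protein, stood at 12.5, 4.6 and 2.42 CPM against 1419, 1773 and 1636 CPM (log2 fold change -8.63 ± 0.99). Its paralogue DSCAM/2/3/4 (KH.C3.390) had 1 read in heart and 1095 in pharyngeal muscle, where it stood at 277, 364 and 390.4 CPM (ratio 2020, 95% counting interval 362 to 79870). ROBO1/2 and both DSCAM/2/3/4 genes passed in each fit on 2 plates. Of 26 genes tested, 2 were higher in heart, 4 lower and 20 did not pass (23.1% called against 4.68% of all genes), with a median log2 fold change of 0.48.

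Energy genes gave no larger share of calls than all genes. CKM (KH.C3.406), a creatine kinase that buffers ATP in muscle, stood at 284, 153 and 25.8 CPM in heart against 14162, 14150.0 and 15095 CPM in pharyngeal muscle, a log2 fold change of -7.43 ± 0.61. The adenylate kinase AK1, chosen after its values were seen, stood at 10.9, 47.2 and 18.1 CPM against 1319.8, 1735 and 1497 CPM (log2 fold change -6.50 ± 0.90). Both passed in each fit on 2 plates. A further creatine kinase, CKB, stood at 3.12, 5.76 and 0.66 CPM against 112, 101 and 407 CPM (log2 fold change -6.31 ± 1.74). For CKB the adjusted p was 0.0691 without plate 4, 0.0598 without plate 5 and 0.34 without plate 7. LIPI (KH.C5.170), a lipase, went the other way at 1332, 1342 and 805 CPM in heart against 1.56, 0 and 2.01 CPM, with 5676 reads against 3 (ratio 1025, 95% counting interval 351 to 4974). Of 85 energy genes tested out of 116, 1 was higher in heart, 2 were lower and 82 did not pass (3.53% called against 4.68% of all genes), with a median log2 fold change of -0.44. The list took 1.61% ± 0.0231 of the reads in heart and 3.01% ± 0.184 in pharyngeal muscle (SD, n = 3 plates).

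The share of membrane carriers called was below that of all genes. Of 72 solute carriers tested out of 279, 1 was higher in heart, 1 was lower and 70 did not pass (2.78% called against 4.68% of all genes), with a median log2 fold change of 0.79. SLC6A11, of the GABA transporter family, had 3 reads in heart and 1109 in pharyngeal muscle, where it stood at 329, 355 and 309.9 CPM (ratio 682, 95% counting interval 233 to 3312). It passed in each fit on 2 plates. SLCO2B1, an organic anion transporter, had 927 reads in heart (173, 197 and 142 CPM) and 0 in pharyngeal muscle, at least 168-fold higher. The adjusted p of SLCO2B1 was 0.215 without plate 4, 0.246 without plate 5 and 0.00334 without plate 7. CAV1/3 (KH.L4.23), a caveolin that shapes membrane pits and chosen after its values were seen, stood at 148, 218 and 310.4 CPM in heart against 5511, 6137 and 3721 CPM (log2 fold change -4.90 ± 0.63). It passed in each fit on 2 plates.

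Matrix genes moved in both directions. Of 33 tested out of 165, 3 were higher in heart muscle, 4 were lower and 26 did not pass (21.2% called against 4.68% of all genes). With total reads 7 were higher and 4 lower. The median log2 fold change was 0.96, close to that of all genes. COL6A1/2/3/5/6, a collagen VI chain, stood at 173, 47.2 and 55.5 CPM in heart against 3712, 2935 and 1817 CPM in pharyngeal muscle (log2 fold change -5.48 ± 0.74), and it passed in each fit on 2 plates. HMCN1 (KH.C4.506), a hemicentin, stood at 10.9, 11.5 and 2.64 CPM against 715, 102 and 431 CPM (log2 fold change -5.88 ± 1.34, adjusted p = 0.15 without plate 4). AGRN, an agrin that gathers acetylcholine receptors at vertebrate synapses, had 2 reads in heart and 416 in pharyngeal muscle, where it stood at 64.6, 110.1 and 338 CPM (ratio 384, 95% counting interval 106 to 3179). On plates 2, 3 and 8 it had 73 heart reads (62.2 CPM) and 127 pharyngeal reads (116 CPM), and in plate 8 heart was higher. It lost its call without plate 7 (adjusted p = 0.167). TIMP1/2/3/4, an inhibitor of matrix proteases, stood at 813, 1729 and 316 CPM in heart against 33.5, 22 and 38.2 CPM (log2 fold change 4.32 ± 1.02). In fits on 2 plates its adjusted p was 0.0557 without plate 4, 0.292 without plate 5 and 0.000205 without plate 7.

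Of 21 Wnt, BMP, FGF and Notch genes tested out of 95, 1 was higher in heart, 2 were lower and 18 did not pass (14.3% called against 4.68% of all genes). Their median log2 fold change was 1.04. WNT2/4/5 (KH.C6.25), a Wnt ligand, stood at 0, 0 and 8.37 CPM in heart against 292, 289 and 757 CPM in pharyngeal muscle (log2 fold change -8.59 ± 1.44), and it passed in each fit on 2 plates. FGF16/20/22/3/9, an FGF ligand, stood at 40.6, 1.15 and 1.76 CPM against 374, 188 and 215 CPM (log2 fold change -6.13 ± 1.62). Its adjusted p was 0.0645 without plate 4, 0.274 without plate 5 and 0.0244 without plate 7. HES1/4/5, a repressor that Notch signalling induces, stood at 754, 588 and 781 CPM in heart against 125, 36.7 and 20.1 CPM (log2 fold change 3.57 ± 1.02). For HES1/4/5 the adjusted p was 0.108 without plate 4, 0.15 without plate 5 and 0.112 without plate 7. Between the muscles, both ligands were thus read mainly in pharyngeal muscle and the repressor mainly in heart muscle. Against the cells of neither gate, HES1/4/5 had a log2 fold change of 0.13 ± 0.72 in heart muscle, which did not pass. In pharyngeal muscle it passed as lower than in those cells (log2 fold change -3.20 ± 0.81). There WNT2/4/5 passed as higher than in those cells (3.87 ± 0.996), and FGF16/20/22/3/9 did not pass (1.97 ± 1.03).

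Heat shock genes with a call were mostly higher in heart muscle in plates 4, 5 and 7. Of 46 tested out of 73, 4 were higher, 1 was lower and 41 did not pass (10.9% called against 4.68% of all genes). The median log2 fold change was 1.73 against 0.79 for all genes. HSP90AB1 (KH.C3.148), a cytosolic chaperone, stood at 3869, 2451 and 2908 CPM in heart against 1397, 183 and 36.2 CPM in pharyngeal muscle (log2 fold change 3.39 ± 0.72, adjusted p = 0.218 without plate 7). HSPA1A, an HSP70 chaperone, stood at 2909.8, 867 and 1199 CPM against 645, 10.7 and 12.1 CPM (log2 fold change 4.77 ± 0.92). The small heat shock gene HSP-16.1/11/2/41/48/49 (KH.S404.8) stood at 4539, 1239 and 2772 CPM against 823, 45.4 and 26.2 CPM (log2 fold change 4.24 ± 0.76). For all 3 genes the pharyngeal level of plate 4 was far above that of plates 5 and 7, and single pharyngeal cells reached 6585 CPM of HSP90AB1 and 9192 CPM of HSPA1A. The last gene's neighbour in name, HSP-16.1/11/2/41/48/49 (KH.S404.12), chosen after its values were seen, had a log2 fold change of 3.49 ± 0.75, and without plate 7 an adjusted p of 0.187. On plates 2, 3 and 8 the pooled values stood at 1107.5 against 852 CPM for HSPA1A, 621 against 525 CPM for KH.S404.8 and 1322 against 933 CPM for KH.S404.12. HSP90AB1 stood at 4307 against 1137 CPM pooled over these plates, with heart higher on plates 2 and 8. On plate 3 HSPA1A stood at 256 CPM in heart and 3085 CPM in pharyngeal muscle. HSP90AB1 (1928 against 2502 CPM) and KH.S404.12 (1382 against 2556 CPM) were also lower in heart there. KH.S404.8 was higher in heart on that plate (1997 against 1121 CPM). In the other direction, HSP26/27, named after fly small heat shock proteins, stood at 14, 4.6 and 15.4 CPM in heart against 1418, 1589 and 1856 CPM (log2 fold change -7.61 ± 0.94), with close values within each side. Heat shock transcripts can also mark handling of cells, and the part of handling in these differences was not tested. With the gate at 500 CPM, HSP90AB1, HSPA1A and KH.S404.12 did not pass.

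RNA-binding genes, chosen after their values were seen, lay on both sides. RBPMS/2, an RNA-binding protein of vertebrate muscle splicing, stood at 1589.9, 1668 and 843 CPM in heart against 50.6, 28.7 and 147 CPM in pharyngeal muscle (log2 fold change 4.16 ± 0.93). QKI, a further splicing regulator, stood at 598, 352 and 653 CPM against 18.7, 61.4 and 8.05 CPM (log2 fold change 4.29 ± 1.23). RBM24/38, a splicing regulator of the RRM family, went the other way at 6.24, 5.76 and 0.22 CPM against 427, 224 and 123 CPM (log2 fold change -6.87 ± 1.61). The groups were separate for each of them. Without each plate in turn, the adjusted p of RBPMS/2 was 0.0587 (plate 4), 0.0679 (plate 5) and 0.000116 (plate 7). For QKI it was 0.481 without plate 4, 0.0124 without plate 5 and 0.137 without plate 7. RBM24/38 lost its call without plate 4 (adjusted p = 0.114). PCBP3, a poly(C)-binding protein named by the rule, had 2 reads in heart and 919 in pharyngeal muscle, where it stood at 412, 179.5 and 242 CPM (ratio 848, 95% counting interval 234 to 7011), and it passed in each fit on 2 plates.

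The remaining genes with the largest fitted changes toward heart muscle were nearly absent from pharyngeal muscle. ADPRHL1, an ADP-ribosylhydrolase-like protein of the vertebrate heart, stood at 676, 1092 and 460.1 CPM, with 3472 reads against 1 (ratio 1882, 95% counting interval 338 to 74350). LRRC4C, a leucine-rich repeat membrane protein, stood at 317, 525 and 274 CPM, with 1902 reads against 1 (ratio 1031, 95% counting interval 185 to 40740). These genes and LIPI passed in each fit on 2 plates. SNAP47 (a SNARE family protein), STC1/2 (a stanniocalcin hormone), CD93 (KH.C7.84) (a C-type lectin receptor) and the sphingosine phosphate receptor gene S1PR1/2/3/4/5 (KH.C2.935) had 969, 1439, 794 and 707 reads in heart and 0 in pharyngeal muscle. They were at least 175-fold, 260-fold, 144-fold and 128-fold higher in heart, in that order. STC1/2 was read in 14 of the 40 heart muscle cells, and plates 2, 3 and 8 had 0 reads of it on both sides. TRIM39/9, a gene with a zebrafish clone name (KH.C2.1069) and Ci-cluster (KH.L170.38) also had 0 reads in pharyngeal muscle and were at least 121-fold, 77.0-fold and 124-fold higher. Among these 7 genes, SNAP47, CD93, TRIM39/9 and KH.C2.1069 passed in 1 of the 3 fits on 2 plates and the other 3 in none, with adjusted p-values from 0.00222 to 1.

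Chosen after their values were seen, ANXA13/7 and Ci-R1CiGC27a04 were also far higher in heart muscle. ANXA13/7, an annexin that binds membranes with calcium, stood at 928, 1062 and 1069 CPM against 0.778, 1.33 and 4.03 CPM (log2 fold change 8.83 ± 1.22). Ci-R1CiGC27a04 (KH.C4.513), a name without a known role, stood at 6899, 8669 and 6709.6 CPM against 82.5, 8.01 and 52.3 CPM (log2 fold change 7.36 ± 0.70). Both passed in each fit on 2 plates. In the cells of neither gate Ci-R1CiGC27a04 stood at a mean of 662 CPM, between both muscles.

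Toward pharyngeal muscle, the remaining largest changes were in genes of varied kinds. R106.2 (KH.C7.668), a name taken from a nematode gene, stood at 4.68, 2.3 and 2.42 CPM in heart against 784, 1832 and 2930.4 CPM in pharyngeal muscle (log2 fold change -9.51, 95% interval -11.47 to -7.55). CD55 (KH.C7.504), a complement regulator, had 3 reads in heart and 1740 in pharyngeal muscle, where it stood at 553, 608 and 237 CPM (ratio 1070, 95% counting interval 366 to 5194). F1NDY4_CHICK (KH.C7.56) had 2 reads against 1204 (ratio 1111, 95% counting interval 307 to 9182). These 3 passed in each fit on 2 plates. WBSCR27 (KH.L116.15), a methyltransferase-like gene, had 0 reads against 209, and PTR-9, named after a nematode patched-related gene, 0 against 356. They were at least 129-fold and 219-fold higher in pharyngeal muscle of the 3 plates. All reads of WBSCR27 (KH.L116.15) came from 3 of the 26 pharyngeal cells, and plates 2, 3 and 8 had 0 reads of it on both sides. WBSCR27 (KH.L116.15) passed in no fit on 2 plates (adjusted p from 0.133 to 0.528), and PTR-9 in that without plate 7 alone. A BATH domain gene (KH.S610.5) had 1 read against 529 (ratio 976, 95% counting interval 174 to 38620) and stood at 249, 38.7 and 304 CPM in pharyngeal muscle. Without plate 7 its adjusted p was 0.0507.

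Single cells showed the same separation with a few exceptions. MYO-1/2/3/5 had a median of 20.4 CPM over 40 heart muscle cells, with 934 CPM as the highest, and one of 10995 CPM over 26 pharyngeal cells, of which 25 had a read. CALML6 had a median of 99.5 CPM in heart cells and 28138 CPM in pharyngeal cells. The heart muscle cell with the fewest reads (4281 reads and 1031 genes, plate 4) gave the highest heart values of both, with 934 CPM of MYO-1/2/3/5 from 4 reads and 4438 CPM of CALML6 from 19. It also had 9344 CPM of CKM (KH.C3.406) from 40 reads, 2 reads of MYF5 and 0 of NKX2-3. Its heart gate sum was 11212.3 CPM and its pharyngeal gate sum 234 CPM. This cell was left out when cells were thinned to 20000 reads, where the log2 fold changes were -9.69 for MYO-1/2/3/5, -8.14 for CALML6 and -7.27 for CKM (KH.C3.406). PDLIM5/7 (KH.C2.204) was read in 37 of 40 heart cells and 7 of 26 pharyngeal cells, and MYBPC1/2/3 in 28 and 2. After thinning to 20000 reads PDLIM5/7 (KH.C2.204) was read in 33 of 38, 4 of 26 and 20 of 240 cells of heart, pharyngeal muscle and neither gate. LIPI was uneven among heart muscle cells, with 29 of 40 carrying a read, a median of 75.5 CPM and a highest value of 11994 CPM. On the pharyngeal side, the plate 4 cell with 1326 CPM of GATA4/5/6 also had 6405 CPM of SYT1/2. It had 92738 reads and a pharyngeal gate sum of 1413 CPM. Its values of LDB3, CKM (KH.C3.406), ROBO1/2 (KH.L19.1) and CALML6 were the lowest of the pharyngeal cells, at 10.8, 64.7, 53.9 and 237 CPM. It stayed in the main fit, and its part in the plate 4 values was not tested.

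**Figure D5:**
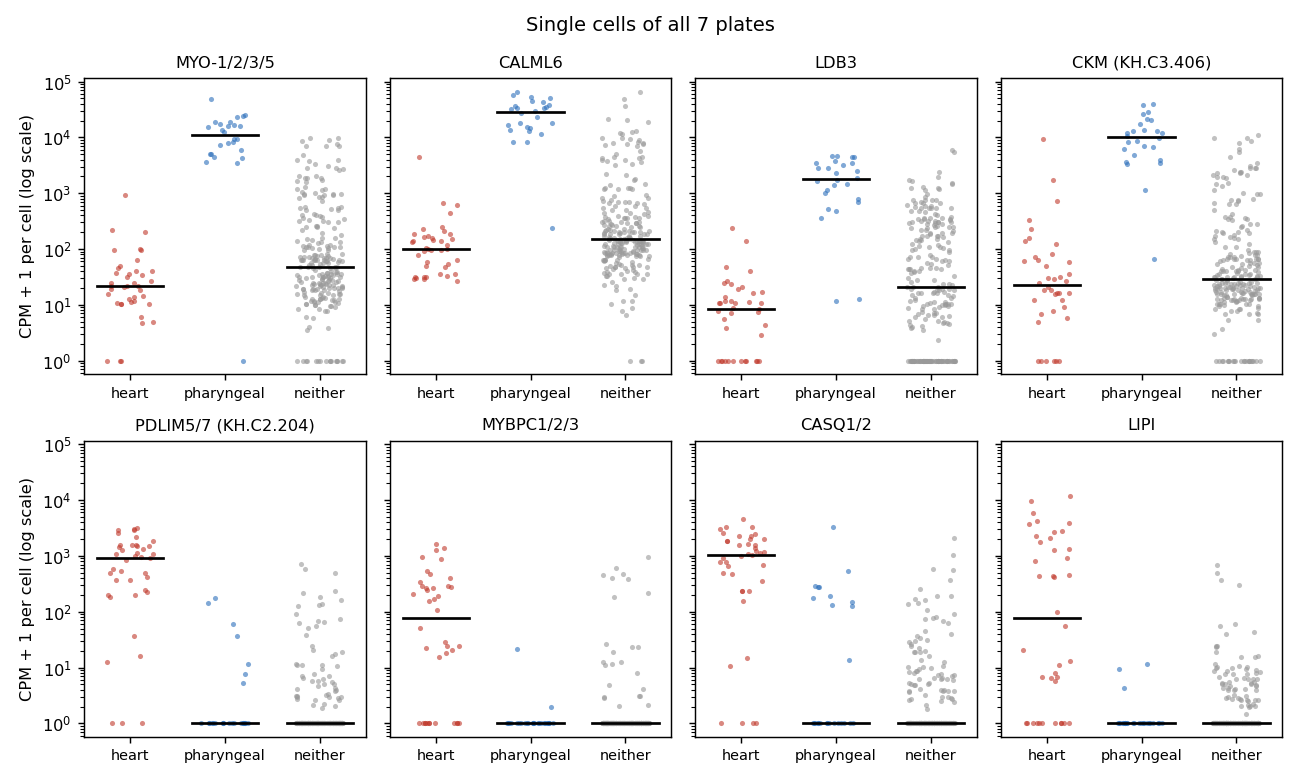
Genes in single cells of all 7 plates. The y axis is CPM + 1 per cell on a log scale, each point is 1 of 40 heart, 26 pharyngeal or 249 other cells, and bars are medians. In the upper row most pharyngeal cells stand above nearly all heart cells, and in the lower row heart cells stand above most pharyngeal cells, with cells of neither gate spread over the range of both.

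The cells of neither gate, sorted from the same lineage and not named here, serve as a common reference for both muscles. Both contrasts below use the same neither-gate sums of plates 4, 5 and 7 and are therefore not independent. Of 7176 genes tested, 48 were higher in heart muscle (0.669%) and 67 lower (0.934%) than in the cells of neither gate, 1.6% in all. In pharyngeal muscle 123 were higher (1.71%) and 84 lower (1.17%), 2.88% in all. The median log2 fold change over all genes tested was -0.70 for heart and -1.48 for pharyngeal muscle (-0.72 and -1.98 with total reads). Rises and falls below are given from 0, not from these medians. Without plate 4 and without plate 5 the numbers higher fell to 26 and 21 for heart and 77 and 50 for pharyngeal muscle. Of the 32 sarcomere genes, 13 were higher and 1 was lower in heart muscle, and 16 were higher and 1 was lower in pharyngeal muscle. TNNI1/2/3 rose in both, by 2.43 ± 0.31 in heart and 4.03 ± 0.33 in pharyngeal muscle on the log2 scale. MYO-1/2/3/5, which is not on that list, fell by 4.41 ± 0.42 in heart muscle and rose by 4.97 ± 0.42 in pharyngeal muscle. CALML6, ROBO1/2 (KH.L19.1) and LDB3 also fell in heart muscle, by 4.09, 4.39 and 4.91, and rose in pharyngeal muscle, by 4.27, 4.64 and 3.88. Single cells of neither gate reached 9920, 63801, 46382 and 5954 CPM of MYO-1/2/3/5, CALML6, ROBO1/2 (KH.L19.1) and LDB3. Their medians over all plates were 47.6, 149, 109 and 19.7 CPM, against 20.4, 99.5, 70.5 and 7.5 CPM in heart muscle cells. The part of the high cells of neither gate in these falls was not tested.

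Against the same cells, TPM1/2/3/4 (KH.C14.129) rose by 3.98 ± 0.34 in pharyngeal muscle and differed by -0.22 ± 0.30 in heart muscle, where it did not pass. RYR1/2/3 rose by 4.19 ± 0.87 in heart and 3.95 ± 0.85 in pharyngeal muscle, and CASQ1/2 by 5.88 ± 0.89 and 3.02 ± 0.78. PDLIM5/7 (KH.C2.204) rose by 6.45 ± 0.99 in heart muscle and had a log2 fold change of -2.55 ± 0.96 in pharyngeal muscle that did not pass. NKX2-3 fell by 5.90 ± 1.32 in pharyngeal muscle, and its log2 fold change of 3.26 ± 1.02 in heart muscle did not pass (adjusted p = 0.0769). EBF1/2/3/4 fell by 4.72 ± 0.96 in heart muscle and differed by 0.17 ± 0.95 in pharyngeal muscle, which did not pass. HSP90AB1 fell by 2.97 ± 0.55 in pharyngeal muscle and differed by -0.03 ± 0.48 in heart muscle.

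Plates 2, 3 and 8, with 7 cells of each kind, were not used in the fit. Of the 88 genes higher in heart muscle, 86 had at least 10 reads there, and 84 of these (97.7%) were again higher in heart muscle. Of the 110 lower genes, 109 had at least 10 reads and all 109 were again lower. Of the 82 named genes that passed, 2 had 0 reads there and 6 differed by less than 2-fold in the called direction, namely SOX11/12/4 (the 1 with the opposite direction), IRX4/6, AGRN, HSPA1A and both small heat shock genes above. Over all genes tested, 47.5% were higher in heart muscle on these plates. MYO-1/2/3/5 stood at 9.37 CPM in the pooled heart cells and 10101 CPM in the pooled pharyngeal cells, NKX2-3 at 482 against 0 CPM and EBF1/2/3/4 at 5.11 against 593 CPM. These cells were chosen by the same gates, so their direction is described without a test.

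Ribosomal protein genes took 40.4% ± 4.60 of the reads in heart muscle, 24.9% ± 4.77 in pharyngeal muscle and 45.0% ± 1.15 in the cells of neither gate (SD, n = 3 plates). The plate values, 41.8, 35.3 and 44.2% against 20.5, 24.2 and 29.9%, did not overlap. In edgeR's test 0 of 68 passed in either direction, 1 was higher at an unadjusted p under 0.05, and DESeq2 called 0. With total reads 22 were higher in heart muscle and 0 lower, so the call depends on the scaling. Shares of reads are tied to each other, so the larger contractile share of pharyngeal muscle and its smaller ribosomal share cannot be told apart.

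Markers of other cells of the lineage were read on both sides and were not equal. The 5 heart regulator genes summed to 880, 1011 and 915 CPM in heart muscle and 96.5, 1.33 and 2.01 CPM in pharyngeal muscle, and the 5 pharyngeal regulator genes to 81.1, 261 and 135 against 865, 1054 and 209 CPM. The 4 genes of non-muscle heart mesoderm summed to 482, 43.7 and 158 CPM in heart muscle and 41.2, 2.67 and 12.1 CPM in pharyngeal muscle, against a mean of 527 CPM in the cells of neither gate. In heart muscle 3 of the 4 were read, and FOXF1/2 was at 0 in plate 5. In heart muscle of plate 4 the sum was near that of the cells of neither gate there (578 CPM). The 29 cilia genes reached 778 CPM in heart muscle of plate 5, above the 567 CPM of the cells of neither gate there. Of this sum 658 CPM came from TEKT3 alone, which was read in 5 heart muscle cells over all plates. The 5 neural or secretory genes reached 467 CPM in pharyngeal muscle of plate 4, nearly all SYT1/2 in 1 cell with 6405 CPM. The other sums of both lists were between 0 and 78.8 CPM. The 10 genes of dividing cells summed to 98.9 ± 8.13 CPM in heart and 86.3 ± 46.2 CPM in pharyngeal muscle, against 590.1 ± 77.0 CPM in the cells of neither gate (SD, n = 3 plates). Of the genes tested from the lists for replication, non-muscle mesoderm, neural and secretory genes and cilia (12, 2, 11 and 1), 0 passed in edgeR's test, 1, 0, 1 and 0 were higher at an unadjusted p under 0.05, and DESeq2 called 1, 1, 0 and 0. The part of these cells' transcripts in the differences above was not tested.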

How the data were processed

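The deposited table holds whole-number read counts per gene and barcode, made by the authors with featureCounts per the submitters' processing notes, on TopHat alignments per the file headers. Versions, settings, the strand and the genome build are not given in the sources used here. Rows are KH2013 gene models, 11061 of 15231 with a name, and none matched the RefSeq gene table, so no coordinates or sequences are given.

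Of 672 barcodes (the design text states 386 cells), the 315 with at least 1000 genes above 0 were kept, which hold 98.2% of 84728369 reads. CPM was computed on totals without the 5 reporter rows. Where both sides of a plate held 3 or more cells, reads were summed per side. In R 4.3.3, edgeR 4.0.16 (with limma 3.58.1) fitted the sums by quasi-likelihood, blocked by plate, after TMM scaling and filterByExpr. Genes passed under 0.05 after Benjamini-Hochberg adjustment over all genes tested. The plate pairs both sides because each barcode column carries its plate. Prior degrees of freedom were infinite, so standard errors, derived from each gene's fold change and F value, are pooled over genes. Both sums of every plate entered the main comparison, and 3 sums per plate entered that with the cells of neither gate. The fit was tested on simulated counts.

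Named genes were the 12 largest changes in each direction among named genes that passed, differed the same way in every plate and reached 50 CPM, up to 4 of each of 17 lists by adjusted p, and tested members of the sarcomere, calcium and regulator lists. List members were found by their names, without accidental matches. The cell gates, lists and rule were chosen with earlier results of these data known, and further genes are said to be chosen after their values were seen. Alternatives were DESeq2 1.42.0, other scalings, no filter, no block, other cell minimums, gates and depths, and leaving out each plate. Cells were also thinned to 20000 reads, which left out 2 shallower heart muscle cells and 0 pharyngeal ones. A few results are not reported here.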

Additional observations from a re-analysis of the deposited data

Results flagged for a closer look

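The 5 reporter rows, which no comparison used, held 204 reads in the mature pharyngeal muscle cells and 44 reads in the heart muscle cells. Both numbers lie above the 3 reads that a count of 0 allows. The labels do not say what these rows mark, and the difference between the sides was not tested.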

How the results depend on the processing

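Of 82 named genes that passed, 26 passed under every alternative that gave a value and 0 changed direction. The number of genes higher in heart muscle was 88 and became 134 with total reads only, 50 without a filter on low counts, 55 with at least 1 cell on each side (6 plates), 142 with the gates at 500 CPM, 26 with cells of 2000 or more genes and 346 with DESeq2. The number lower was 110 and became 187 with the gates at 500 CPM, 73 with cells of 2000 or more genes and 250 with DESeq2. Leaving out each plate in turn gave 34 to 69 higher and 67 to 105 lower genes. Against the cells of neither gate, leaving out each plate gave 21 to 54 genes higher in heart muscle (48 with all plates) and 50 to 110 higher in pharyngeal muscle (123 with all plates). The other cell minimums, size factors, the gate at 2000 CPM and thinning kept both counts within 1.5 times. A minimum of 5 cells, the gate at 2000 CPM and cells of 2000 genes leave 2 plates, and the cause of the moves was not tested.

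Without the replicate block, so ignoring the pairing by plate, 105 genes were higher and 123 lower, of which 80 and 104 were among the calls with the block. GATA4/5/6 lost its call there (adjusted p = 0.0984), as did HSPA1A and ADORA2B, while EBF1/2/3/4 (adjusted p = 0.00398), MYL1/3/4/6 (adjusted p = 0.016) and STAC/2/3 (adjusted p = 0.018) gained one. Gates by MYH1/2 and CACNA1C alone at 200 CPM left only plate 4 (5 and 6 cells) and could not be fitted.

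Plate 7 held 3 pharyngeal cells and 496862 of their reads, so values there rest on few cells. A difference of the size of most genes' standard errors was not detectable at this depth.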
